A study of Mus musculus with 6 samples.

Results

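Voltage-gated calcium channels were described in the mouse uterus shortly before embryo attachment through 10 subunit genes of the 56748 genes measured. These were the 4 genes of the α2δ subunits (*Cacna2d1*, *Cacna2d2*, *Cacna2d3* and *Cacna2d4*), 4 pore genes (*Cacna1c*, *Cacna1d*, *Cacna1g* and *Cacna1h*) and 2 β subunit genes (*Cacnb2* and *Cacnb3*). All 10 were matched by symbol. The set was chosen by the difference of *Cacna2d3* between control and *Gp130* ecKO uteri in these same data, and its relatives were added by family. The differences of the 10 genes between the groups are therefore given as descriptions, with no p-value, and a count of those past the threshold for calls is a description too. Uteri of control and *Gp130* ecKO females, 3 samples of each, were compared by RNA-seq at 1600 h on day 4 of pregnancy. The females were sexually mature, mated with fertile wildtype males and of the C57BL/6 background per the labels (C57BL/6J per the methods). The *Gp130* ecKO females carried 1 *Ltf*-iCre allele and floxed *Gp130* on both chromosomes. The labels give the controls as WT, whereas the methods allow either floxed *Gp130* without iCre or wildtype. The *Ltf* driver acts in the uterine epithelium and, per the study, *Ltf* is also expressed in some neutrophils and macrophages.

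A voltage-gated calcium channel opens when the membrane is depolarized and lets calcium into the cell. The α1 protein forms the pore and sets the channel type, L-type for *Cacna1c* and *Cacna1d* and T-type for *Cacna1g* and *Cacna1h*. An intracellular β subunit and a largely extracellular α2δ subunit bring pores of the high-voltage class to the cell surface and tune their gating, while T-type pores can work without them. In the uterus, L-type channels are best known for the calcium entry that drives contraction of the myometrium, and T-type channels for pacing it. The α2δ proteins of *Cacna2d1* and *Cacna2d2* bind gabapentin, a property that those of *Cacna2d3* and *Cacna2d4* lack.

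The 250 bases upstream of the annotated starts of *Cacna2d3* and *Cacna2d1* are shown because these were the most abundant α2δ genes in every *Gp130* ecKO uterus. Both are written 5′ to 3′ on the strand of the gene, from GRCm39 with GENCODE M39 starts, at chr14:29444601-29444850 (minus strand) for *Cacna2d3* and chr5:16139122-16139371 (plus strand) for *Cacna2d1*.
Cacna2d3: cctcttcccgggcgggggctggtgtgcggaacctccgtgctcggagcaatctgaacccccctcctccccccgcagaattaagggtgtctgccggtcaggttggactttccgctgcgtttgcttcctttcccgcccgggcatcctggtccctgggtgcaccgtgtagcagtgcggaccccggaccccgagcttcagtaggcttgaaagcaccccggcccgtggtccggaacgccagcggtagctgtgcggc
Cacna2d1: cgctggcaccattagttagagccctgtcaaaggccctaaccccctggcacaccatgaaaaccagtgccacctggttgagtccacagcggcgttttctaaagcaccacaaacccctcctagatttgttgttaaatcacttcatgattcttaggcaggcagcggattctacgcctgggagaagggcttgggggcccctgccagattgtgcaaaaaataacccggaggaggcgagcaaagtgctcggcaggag
The GC content was 67.2% for *Cacna2d3* and 54.4% for *Cacna2d1*. Windows from 250 bases before to 50 bases after the start were searched on both strands for TTCNNNGAA (the STAT palindrome), TGANTCA (the AP-1 site) and the full palindromes of the estrogen response element and of the steroid response element. None of these occurred in the windows of the 10 genes, so no base is in capitals. Among 21770 windows of protein-coding genes, 8.81% held the STAT palindrome, 7.14% the AP-1 site, 0.381% the steroid response element and 0.0505% the estrogen response element.

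Values are given as CPM, the deposited expected count relative to the TMM-scaled library, or as TPM where genes are compared with each other, since TPM is scaled by length. The total expected count per uterus was 13960748 to 25906443, lowest in control 3. *Gp130* itself (*Il6st*) was at 452 to 678 CPM in the controls and 349.8 to 388 CPM in *Gp130* ecKO, without overlap. Over the 16605 genes with enough counts to be tested, the median log2 fold change was −0.05, and fitted log2 differences (*Gp130* ecKO over control) are given with their standard error (SE). In RNA of whole uteri, fewer cells of a type and less RNA per cell cannot be told apart. The design text names the tissue endometrium and the labels name it uterus, and the smooth muscle gene *Acta2* was at 146 to 1098 CPM in all 6. Nothing in the labels says whether the uteri came from separate animals, so p-values measure the spread between these samples.

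Of the 10 genes, 9 passed the filter and *Cacna2d4* did not. Calls needed a false discovery rate under 0.05 and a change of more than 2-fold in edgeR's quasi-likelihood test, which 0.157% of all tested genes met. Among the 9, *Cacna2d3* was the one called. That call was lost with edgeR's legacy quasi-likelihood fit, with the replicate number as a block and in 5 of the 6 fits that left out 1 uterus. It was made without control 2. In CPM the 3 control and 3 *Gp130* ecKO values were fully separate for 1 gene higher in *Gp130* ecKO, *Cacna2d3*, and for 1 lower gene, *Cacna1h*. Over all tested genes 15.7% were higher and 15.6% lower without overlap. The set was chosen on the same comparison, and nothing is read from these counts.

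**Figure D1:**
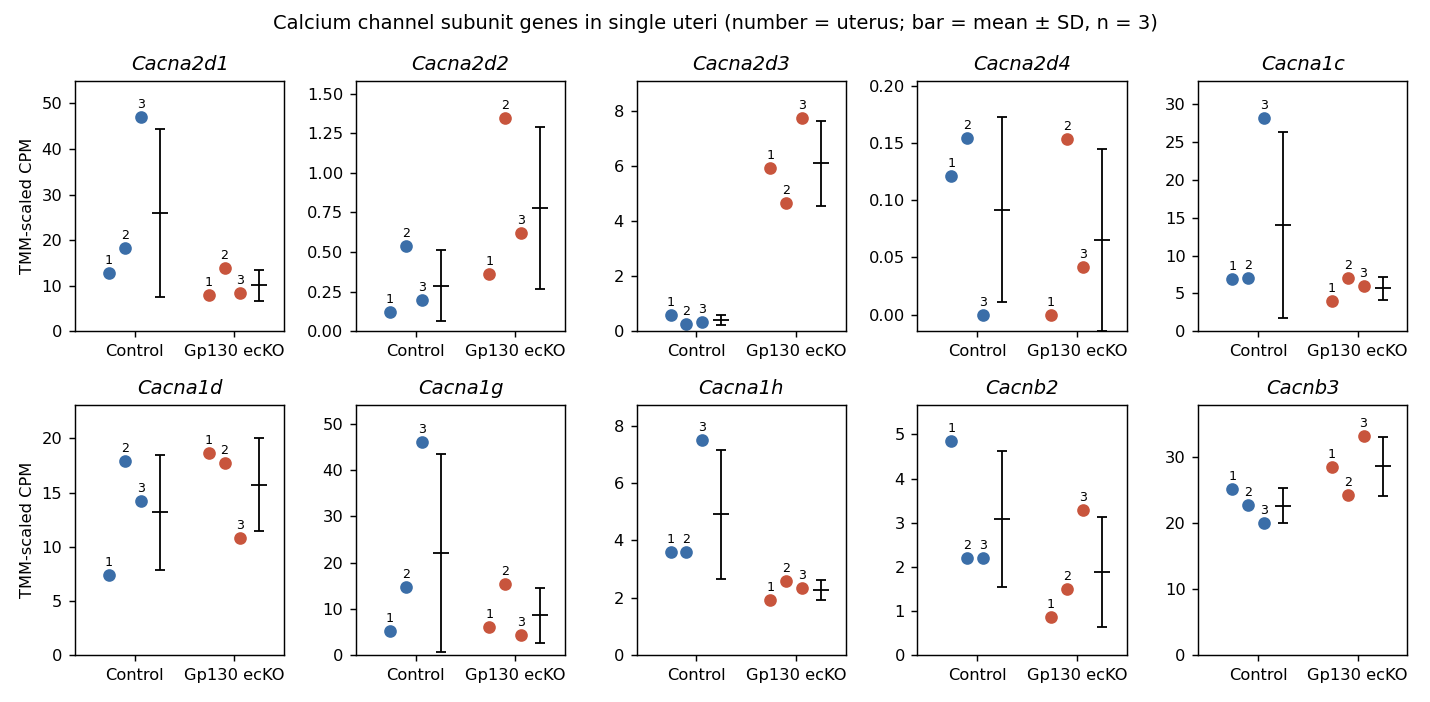
Each panel plots 1 subunit gene, with the TMM-scaled CPM of the 3 control uteri (blue) and the 3 *Gp130* ecKO uteri (red) as numbered points and the mean ± SD as a black bar. *Cacna2d3* lies between 0.270 and 0.607 CPM in the controls and between 4.65 and 7.75 CPM in *Gp130* ecKO, while control 3 is the highest point for *Cacna2d1*, *Cacna1c*, *Cacna1g* and *Cacna1h*.

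*Cacna2d3* (ENSMUSG00000021991, chr14:28626892-29444600, minus strand) encodes an α2δ subunit that is also known for its part in pain sensing and hearing. It had 15, 7 and 5 counts in controls 1, 2 and 3, and 131, 121 and 187 counts in *Gp130* ecKO 1, 2 and 3. Its CPM was 0.607, 0.270 and 0.333 in controls, against 5.92, 4.65 and 7.75 in *Gp130* ecKO. The groups were far apart, with each *Gp130* ecKO uterus above every control. The means were 0.403 ± 0.179 CPM (SD, n = 3) and 6.11 ± 1.56 CPM (SD, n = 3), and the fitted log2 difference was 3.88 (SE 0.45). With 1 uterus left out at a time the log2 difference was 3.64 to 4.37, while the gene passed the threshold for calls in 1 of these 6 fits.

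The low counts of *Cacna2d3* in the controls set the precision of its level there. The exact 95% Poisson interval, which covers counting error only, was 0.340 to 1.00 CPM in control 1, 0.109 to 0.556 in control 2 and 0.108 to 0.778 in control 3. In *Gp130* ecKO it was 4.95 to 7.03, 3.86 to 5.56 and 6.68 to 8.95 CPM. RSEM also estimated a different mix of transcripts in the groups. The effective length of *Cacna2d3* was 1510, 1267 and 1513 bases in controls 1, 2 and 3, and 2596, 1996 and 2433 bases in *Gp130* ecKO 1, 2 and 3. In the controls these lengths rested on 5 to 15 counts. Per length the difference was smaller, with 0.50, 0.28 and 0.31 TPM in controls, against 3.17, 3.51 and 3.94 TPM in *Gp130* ecKO. The ratio of the group means was 9.74 in TPM and 15.1 in CPM. None of the stretches of 75 bases in *Cacna2d3* transcripts occurred in another gene on either strand.

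*Cacna2d1* (chr5:16139372-16579509, plus strand), the α2δ subunit of skeletal and smooth muscle and heart, had the lower mean in *Gp130* ecKO. Its CPM was 12.7, 18.2 and 47.0 in controls, against 7.87, 13.9 and 8.37 in *Gp130* ecKO. The groups overlapped, because *Gp130* ecKO 2 was above control 1, and control 3 was far above the rest. The fitted log2 difference was −1.36 (SE 0.51), and −0.62 without control 3. *Cacna2d2* (chr9:107276811-107406543, plus strand), best known from the cerebellum, had 3, 14 and 3 counts in controls, against 8, 35 and 15 in *Gp130* ecKO. Number 2 was the highest uterus of each group, and the groups overlapped. Its fitted log2 difference was 1.38 (SE 0.71), with 2.37 without control 2 and 0.72 without *Gp130* ecKO 2. *Cacna2d4* (chr6:119213408-119329368, plus strand), the α2δ subunit of the retina, had 0 to 4 counts in every uterus and no fold is given.

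In TPM the 4 α2δ genes summed to 4.51, 6.18 and 14.2 in controls 1, 2 and 3, and to 5.52, 9.22 and 7.16 in *Gp130* ecKO 1, 2 and 3. The sums of the groups overlapped. The make-up of the sum differed between the groups. *Cacna2d3* made up 11.1%, 4.53% and 2.18% of it in the controls, and 57.4%, 38.1% and 55.0% in *Gp130* ecKO. *Cacna2d1* made up 87.4%, 87.1% and 97.5% in the controls, and 40.9%, 52.8% and 38.3% in *Gp130* ecKO. In *Gp130* ecKO 1 and 3 *Cacna2d3* was therefore the most abundant α2δ transcript, and in *Gp130* ecKO 2 *Cacna2d1* was. These shares come from the values that chose *Cacna2d3* and carry no test.

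**Figure D2:**
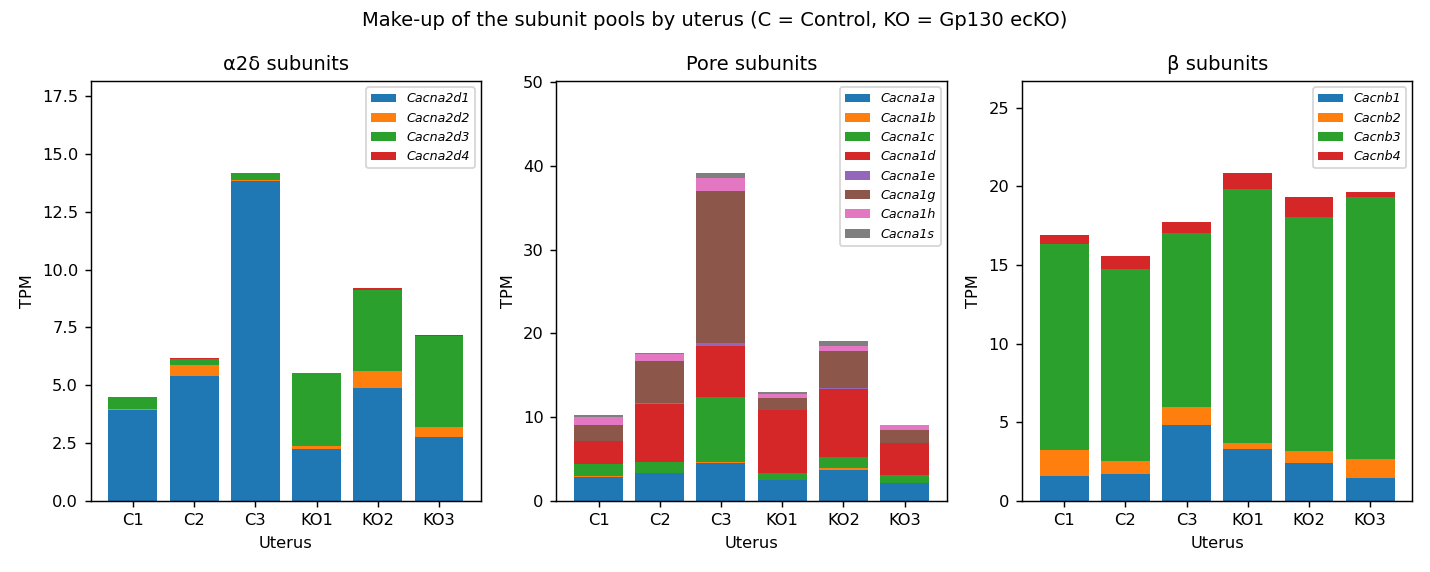
Stacked bars give the TPM of each α2δ, pore and β subunit gene in every uterus (C, control and KO, *Gp130* ecKO), leaving out genes under 0.05 TPM in all 6. The *Cacna2d3* part of the α2δ bar is 2.18% to 11.1% in the controls and 38.1% to 57.4% in *Gp130* ecKO, and the pore bar of control 3 is the tallest at 39.2 TPM.

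Among the pore genes described in full, *Cacna1h* (chr17:25593259-25652764, minus strand), a T-type pore, was the one whose groups did not overlap. Its CPM was 3.61, 3.60 and 7.51 in controls, against 1.90, 2.58 and 2.32 in *Gp130* ecKO. No *Gp130* ecKO uterus reached any control, also in TPM. The fitted log2 difference was −1.09 (SE 0.41). Without control 3, the highest uterus, it was −0.66. Of its stretches of 75 bases, 0.844% also occur in *Tpsg1* on the opposite strand.

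*Cacna1g* (chr11:94299217-94365230, minus strand), the other T-type pore, ranged widely among the controls. Its CPM was 5.14, 14.8 and 46.1 in controls, against 6.06, 15.4 and 4.23 in *Gp130* ecKO. The groups overlapped widely, and control 3 stood apart. The fit gave −1.35 (SE 0.80), −0.22 without control 3 and −2.08 without *Gp130* ecKO 2. *Cacna1c* (chr6:118564201-119173851, minus strand), the L-type pore of heart and smooth muscle, had 6.84, 7.06 and 28.2 CPM in controls, against 4.02, 7.04 and 5.97 CPM in *Gp130* ecKO. Control 3 again stood apart, and *Gp130* ecKO 2 was level with controls 1 and 2. For this gene the fit gave −1.29 (SE 0.59), and −0.29 without control 3.

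*Cacna1d* (chr14:29761896-30213412, minus strand), the L-type pore of endocrine and sinoatrial cells that opens at lower voltage, had 7.39, 17.9 and 14.2 CPM in controls, against 18.7, 17.7 and 10.8 CPM in *Gp130* ecKO. The groups overlapped, and the fit gave a log2 difference of 0.26 (SE 0.37), and −0.0045 without control 1. The end of *Cacna1d* overlaps the end of *Chdh*, the choline dehydrogenase gene of the opposite strand, over 1477 bases at chr14:29761896-29763372. Of the 15970 stretches of 75 bases in *Cacna1d* transcripts, 9.25% also occur on the opposite strand in *Chdh* or *Gm50467*. Whether strand was used in the counting is not given in the sources used here, so reads of *Cacna1d* and *Chdh* in that overlap cannot be told apart. *Chdh* was much the more abundant, at 176, 578 and 361 CPM in controls, against 970.2, 824 and 519 CPM in *Gp130* ecKO. *Cacna1d* amounted to 4.20%, 3.09% and 3.93% of *Chdh* in the controls and 1.93%, 2.15% and 2.09% in *Gp130* ecKO. Its level followed that of *Chdh* within each group, with the same order of the 3 uteri in the controls and in *Gp130* ecKO.

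**Figure D3:**
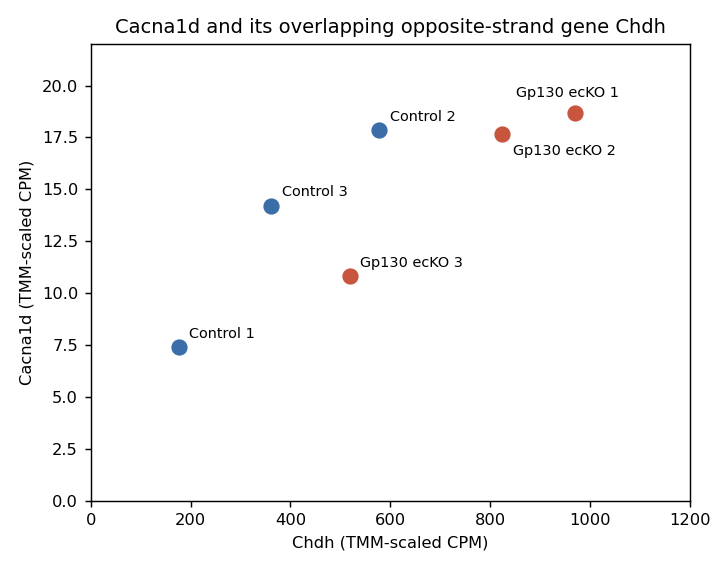
Each point is 1 uterus, with the CPM of *Chdh* on the horizontal axis and the CPM of *Cacna1d* on the vertical axis (controls blue, *Gp130* ecKO red). Within each group the uterus with more *Chdh* has more *Cacna1d*, and *Cacna1d* is 3.09% to 4.20% of *Chdh* in the controls against 1.93% to 2.15% in *Gp130* ecKO.

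The 10 pore genes of the family summed to 10.2, 17.6 and 39.2 TPM in controls 1, 2 and 3, and to 13.0, 19.1 and 9.12 TPM in *Gp130* ecKO 1, 2 and 3. The sums overlapped. *Cacna1d* was the largest part in every *Gp130* ecKO uterus, at 57.3%, 42.8% and 41.9%, and made up 26.3%, 39.3% and 15.5% in the controls. *Cacna1g* made up 18.9%, 28.4% and 46.4% in the controls and 11.1%, 23.1% and 17.1% in *Gp130* ecKO. The share of *Cacna1d* did not overlap between the groups and that of *Cacna1g* did. The limit on *Cacna1d* reads holds for these shares too.

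Of the β subunit genes, *Cacnb3* (chr15:98528721-98542417, plus strand) was the more abundant and encodes a β subunit common in brain and smooth muscle. Its CPM was 25.1, 22.8 and 19.9 in controls, against 28.4, 24.2 and 33.2 in *Gp130* ecKO. *Gp130* ecKO 2 lay below control 1, so the groups overlapped in CPM. In TPM they did not overlap, with 13.1, 12.2 and 11.1 in controls, against 16.1, 14.9 and 16.7 in *Gp130* ecKO. The fitted log2 difference was 0.34 (SE 0.20). *Cacnb2* (chr2:14607899-14994127, plus strand), the main β subunit of heart, had 4.85, 2.20 and 2.20 CPM in controls, against 0.859, 1.50 and 3.27 CPM in *Gp130* ecKO. Control 1 was highest and *Gp130* ecKO 3 lay above controls 2 and 3. Its fitted log2 difference was −0.72 (SE 0.57), with −0.19 without control 1 and −1.36 without *Gp130* ecKO 3. The 4 β genes summed to 16.9, 15.6 and 17.7 TPM in controls, against 20.9, 19.3 and 19.6 TPM in *Gp130* ecKO, with *Cacnb3* at 62.6% to 85.0% of the sum in every uterus.

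Ordered by mean TPM in the controls, the genes ran *Cacnb3* (12.1 ± 1.0), *Cacna1g* (8.37 ± 8.64), *Cacna2d1* (7.72 ± 5.34), *Cacna1d* (5.22 ± 2.24), *Cacna1c* (3.58 ± 3.72), *Cacnb2* (1.20 ± 0.41), *Cacna1h* (1.09 ± 0.42), *Cacna2d3* (0.363 ± 0.119), *Cacna2d2* (0.19 ± 0.26) and *Cacna2d4* (0.023 ± 0.021), each with SD and n = 3. Neighbours in this order overlapped over the uteri, except *Cacna1h* and *Cacna2d3*. In *Gp130* ecKO the order was *Cacnb3* (15.9 ± 0.9), *Cacna1d* (6.47 ± 2.32), *Cacna2d3* (3.54 ± 0.39), *Cacna2d1* (3.29 ± 1.39), *Cacna1g* (2.47 ± 1.68), *Cacna1c* (1.06 ± 0.29), *Cacnb2* (0.77 ± 0.41), *Cacna1h* (0.55 ± 0.07), *Cacna2d2* (0.44 ± 0.33) and *Cacna2d4* (0.033 ± 0.049). Here *Cacnb3* and *Cacna1d* did not overlap, nor did *Cacna1g* and *Cacna1c*, and the other neighbours did. *Cacna2d3* stood in place 8 of 10 in the controls and in place 3 in *Gp130* ecKO, where its range overlapped that of *Cacna2d1*.

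Of the 16 other subunit genes of the family, 6 passed the filter. None was called, and 2 of the 6 had an unadjusted p below 0.05, as did 25% of all tested genes. The edgeR exact test and DESeq2 each called *Cacng4*, among 1239 and 1593 genes in all. The fitted log2 difference was above 0 for 1 gene and below 0 for 5, with a median of −0.86 against −0.05 over all tested genes. *Cacna1a*, the P/Q-type pore of nerve terminals, had 6.31, 6.02 and 8.60 CPM in controls, against 3.35, 3.69 and 3.44 CPM in *Gp130* ecKO. The groups did not overlap in CPM but did in TPM, and the fitted log2 difference was −0.99 (SE 0.29, edgeR adjusted p = 0.113). *Cacng4*, a γ subunit that also serves glutamate receptors, had 3.72, 5.51 and 16.8 CPM in controls, against 0.995, 3.27 and 1.33 CPM in *Gp130* ecKO. Its groups did not overlap in CPM but did in TPM, control 3 was highest, and the fitted log2 difference was −2.19 (SE 0.70, edgeR adjusted p = 0.125), or −1.30 without control 3 and −2.87 without *Gp130* ecKO 2. The other 4 overlapped between the groups, with log2 fold changes of −1.49 for *Cacna1e*, −0.73 for *Cacng7*, −0.16 for *Cacnb1* and 0.20 for *Cacnb4*, and adjusted p from edgeR of 0.322 to 0.843. *Cacna1e* was at −0.75 without control 3 and −2.85 without *Gp130* ecKO 2, and *Cacng7* at −1.38 without *Gp130* ecKO 2. Without control 3 *Cacnb1* turned to 0.30, and without control 1 *Cacnb4* turned to −0.14.

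Regulators of the channels form the next layer. Of 18 listed genes 14 passed the filter. None was called, and 4 of the 14 had an unadjusted p below 0.05, against the same 25% of all tested genes. The exact test and DESeq2 each called *Stac2*. The fitted log2 difference was above 0 for 6 and below 0 for 8, with a median of −0.31 against −0.05 over all tested genes. *Stac2*, an adaptor that slows inactivation of L-type pores, had 10.6, 9.49 and 27.2 CPM in controls, against 3.16, 6.81 and 1.66 CPM in *Gp130* ecKO. The groups did not overlap, control 3 was highest, and the fitted log2 difference was −2.01 (SE 0.61, edgeR adjusted p = 0.118), or −1.37 without control 3 and −2.70 without *Gp130* ecKO 2. *Rem1* and *Rrad* encode small GTPases of the RGK family, which bind β subunits and hold the channels down. *Rem1* had 4.81, 5.75 and 6.47 CPM in controls, against 2.22, 3.81 and 2.69 CPM in *Gp130* ecKO. Its fitted log2 difference was −0.96 (SE 0.33, edgeR adjusted p = 0.143), and that of *Rrad* −1.12 (SE 0.42, adjusted p = 0.162). Their family member *Rem2* was higher in each *Gp130* ecKO uterus than in any control, with a fitted log2 difference of 1.36 (SE 0.63, edgeR adjusted p = 0.225) that was 0.71 without *Gp130* ecKO 3. *Gem* was at −0.06. *Ahnak*, a scaffold that binds β subunits, was also lower in *Gp130* ecKO, at −0.80, without overlap in CPM but with overlap in TPM.

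The regulators named next overlapped between the groups in CPM. *Calm2* and *Calm3* encode calmodulin, which senses calcium on the pore, and had log2 fold changes of 0.09 and 0.24. *Prkaca*, the catalytic subunit of protein kinase A, was at 0.36, and *Rims1*, a β-binding protein of secretory sites, also at 0.36. *Cachd1*, an α2δ-like protein, was at −0.78, and *Cbarp*, a β-anchoring protein, at −0.67, or −1.40 without *Gp130* ecKO 1. *Gem*, *Calm2* and *Rims1* changed sign when single uteri were left out.

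**Figure D4:**
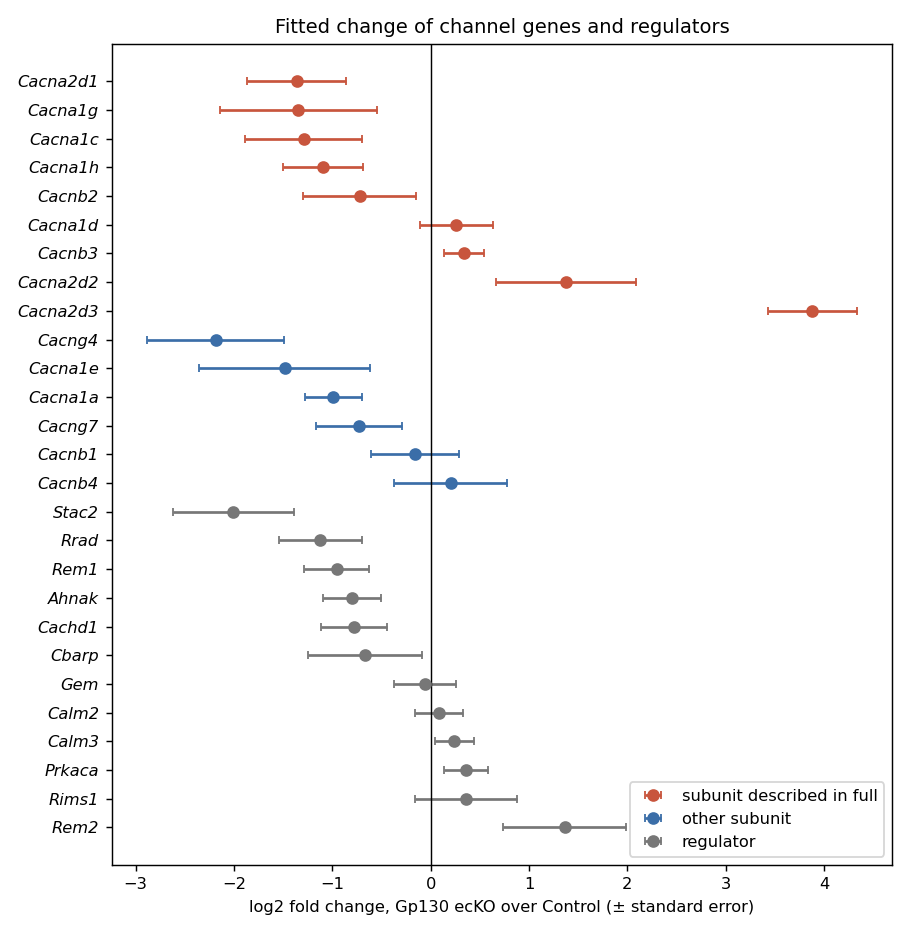
Points give the fitted log2 fold change of *Gp130* ecKO over control and bars its standard error, for the 9 tested subunit genes described in full (red), the 6 other subunits (blue) and 12 of the 14 tested regulators (grey). *Cacna2d3* lies at 3.88, and the other genes lie between −2.19 (*Cacng4*) and 1.38 (*Cacna2d2*).

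The stretch of chromosome 14 that holds both *Cacna2d3* and *Cacna1d* was described as genomic context, chr14:28626892-30213412, 1586.5 kb long. It holds 25 other genes of the tables, of which 6 passed the filter and 18 had at most 3 counts in every uterus. *Lrtm1*, which lies within *Cacna2d3* on the opposite strand, had 1 count over the 6 uteri. None of the 6 neighbours was called by edgeR's quasi-likelihood test, its exact test or DESeq2, and *Chdh* was the 1 with an unadjusted p below 0.05. The log2 fold changes were −0.18 for *Selenok*, −0.66 for *Actr8*, −0.64 for *Il17rb*, 1.05 for *Chdh*, 1.26 for *Gm18760* and 0.11 for *Dcp1a*, with adjusted p from edgeR of 0.192 to 0.747. The nearest tested start, that of *Selenok*, lies 245.7 kb from the start of *Cacna2d3*. The other pair, *Cacna2d4* and *Cacna1c*, lies at chr6:118564201-119329368 with 1 tested neighbour, *Dcp1b*, at 0.43 (edgeR adjusted p = 0.403).

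Genes with the pattern most like that of *Cacna2d3* were ranked by Pearson's r of log2(CPM + 0.5) over the 6 uteri, among 14764 genes with a mean of at least 1 CPM. The 6 uteri fall into the 2 groups, which r follows, and no p is given. The highest r were those of *Slc33a1* (0.989), *Gm2436* (0.986), *Gm9830* (0.986), *Il20rb* (0.985) and *Stat5b* (0.984). *Stat5b*, a transcription factor of cytokine and prolactin signaling, had 43.0, 46.4 and 43.3 CPM in controls, against 102, 101 and 109 CPM in *Gp130* ecKO. *Il20rb*, a cytokine receptor chain, had 5.66, 6.63 and 6.40 CPM in controls, against 29.7, 26.2 and 34.3 CPM in *Gp130* ecKO. The most opposite were *Ppp1r3d* (−0.994), *Sorcs2* (−0.994) and *Snn* (−0.993), and in all 75 genes had r above 0.95 and 80 below −0.95.

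Marker genes of cell types in the uterus are given beside the channel genes as levels, with no test. The sums of the epithelial, stromal, endothelial and nerve and glia markers were separate between the groups, and those of the smooth muscle, macrophage and blastocyst markers overlapped. The summed CPM of 6 epithelial markers was 1969 to 2882 in the controls and 4146 to 5544 in *Gp130* ecKO, with *Krt8*, *Krt19* and *Cdh1* higher without overlap. The groups overlapped for the other 3, and the mean of *Epcam* was 459 CPM in the controls and 402 CPM in *Gp130* ecKO, that of *Krt18* 442 and 739.8 CPM, and that of *Cldn7* 292 and 352 CPM. That of 6 stromal markers was 2355 to 2775 in the controls and 1163 to 1688 in *Gp130* ecKO, with 4 of the 6 lower without overlap. The 4 endothelial markers summed to 307 to 744 CPM in the controls and 169 to 305 CPM in *Gp130* ecKO, with 3 of the 4 lower without overlap. Of all tested genes, 15.7% were higher and 15.6% lower without overlap in CPM. The part of cell composition in the differences of *Cacna2d3*, *Cacna1h*, *Cacna1a* and the regulators was not tested.

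Smooth muscle, where L-type channels are best known, varied within the groups instead. Its 6 markers summed to 2029, 1499 and 487 CPM in controls 1, 2 and 3, and to 367, 698 and 2292 CPM in *Gp130* ecKO 1, 2 and 3. Control 3, which had the most *Cacna2d1*, *Cacna1c* and *Cacna1g*, had the lowest muscle sum of the controls. *Gp130* ecKO 3, with the highest muscle sum of the 6 uteri, had the lowest *Cacna1g*. *Cacnb2* was highest in control 1 and *Gp130* ecKO 3, the uterus with the highest muscle sum of each group. The 4 macrophage markers overlapped between the groups, at 82.5 to 121 CPM in the controls and 55.3 to 108 CPM in *Gp130* ecKO. Markers of nerve and glia, the tissue in which α2δ subunits are most studied, summed to 2.58 to 3.60 CPM in the controls and 1.08 to 2.49 CPM in *Gp130* ecKO, lower without overlap. Of the 6, *Tubb3* was lower without overlap, at 1.04 to 1.50 CPM in the controls and 0.045 to 0.41 CPM in *Gp130* ecKO, and 3, *Elavl4*, *Snap25* and *Sox10*, had at most 3 counts in every uterus. The 3 blastocyst markers summed to at most 0.407 CPM in any uterus.

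**Figure D5:**
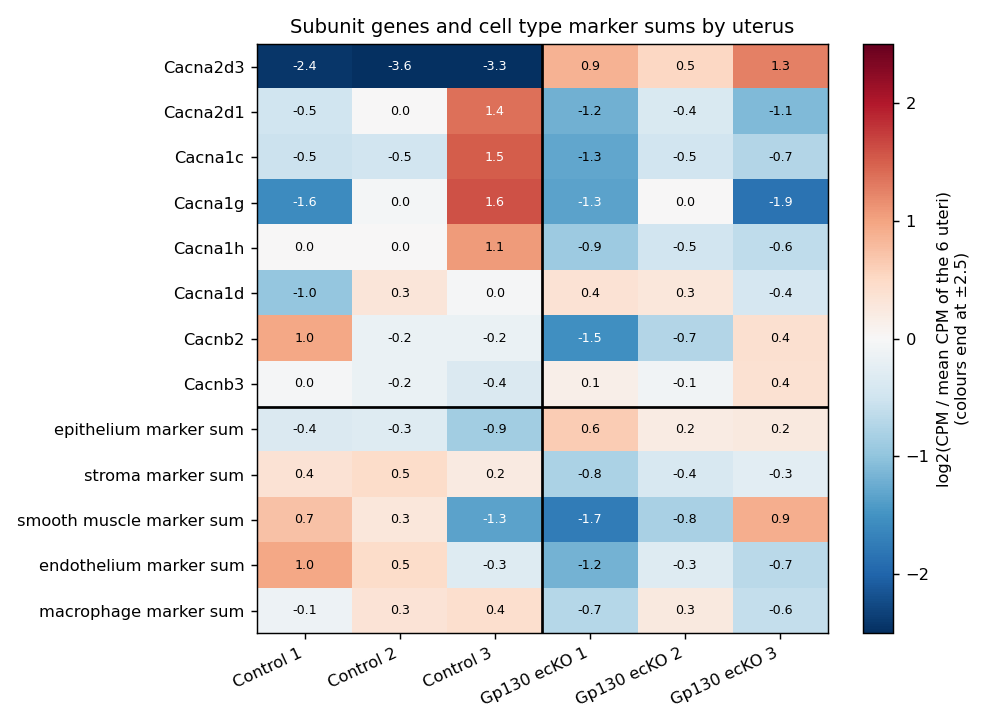
Rows are 8 subunit genes and 5 marker sums, columns the 6 uteri, and colour and number give log2 of the CPM over its mean across the 6 uteri. *Cacna2d3* is below 0 in all controls and above 0 in all *Gp130* ecKO uteri, as is the sum of the epithelial markers, while *Cacna2d1*, *Cacna1c* and *Cacna1g* peak in control 3, where the smooth muscle sum is low.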

How the data were processed

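Poly(A) RNA of 3 control and 3 *Gp130* ecKO uteri was sequenced from strand-specific libraries as single reads of 75 bases. The authors trimmed reads with fastp 0.23.2, removed ribosomal reads, mapped to GRCm39 with STAR 2.7.10a and estimated 1 table per uterus with RSEM 1.3.3, per the methods and the submitters' processing notes. The annotation version is not given in the sources used here. The deposited expected count, which is not normalized, was used for the tests, and the deposited TPM, which the authors scaled by transcript length and library, for comparing genes. FPKM was not used. The effective length in the deposited tables is that of RSEM's transcript mix.

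Expected counts were rounded to whole numbers, filtered with filterByExpr (16605 genes kept), scaled by TMM and tested over the whole table with the quasi-likelihood F test of edgeR 4.0.16 in R 4.3.3 (glmQLFit with legacy = FALSE), with Benjamini-Hochberg adjustment. A gene was called when its FDR was below 0.05 and it differed by more than 2-fold. Standard errors were derived from the fitted fold change and its F statistic. The scripts were tested on simulated data. Replicate libraries were compared, and none was nearly identical to another. Total counts ranged from 13960748 to 25906443, so genes of a few counts are imprecise. GENCODE M39 held 56017 of the 56748 gene identifiers and gave symbols, positions and transcripts.

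Named are the 10 genes, the other subunits and regulators that passed the filter, genes in the 2 shared stretches, and the 5 most and 3 least like *Cacna2d3*. The genes and lists were chosen with earlier results of these data known. Some items are not reported here. Alternatives were edgeR's legacy fit and exact test, DESeq2 1.42.0, other size factors and filters, unrounded counts, a replicate block and each uterus left out.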

Additional observations from a re-analysis of the deposited data

How the results depend on the processing

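*Cacna2d3* kept its direction under each of the 14 alternatives. It was below the threshold with the legacy fit (log2 fold change 3.89) and with the replicate number as a block (3.86), so the number of subunit genes called, 1 in the report, was then 0. With single uteri left out its log2 fold change was 3.64 to 4.37 and the number of subunit genes called was 0 to 1, with 1 only without control 2. The genes called over the whole table, 26 in the report, were 7 with the legacy fit, 6 with the replicate block, 105 with no filter, 1239 with the exact test and 1593 with DESeq2. They were 1 to 892 with single uteri left out, the most without control 2 and the fewest without *Gp130* ecKO 3. Deviations from the group means had r of 0.104, 0.069 and −0.196 between same-numbered uteri. Between uteri of different numbers r was −0.311 to 0.220. With 3 uteri per group these values cannot decide whether the numbers pair the uteri, and no conclusion is drawn. Other channel and regulator genes called, 0 in the report, were 2 with the exact test (*Cacng4* −2.21, *Stac2* −2.02) and 2 with DESeq2 (−2.17 and −1.98). Subunit genes without overlap, 2 in the report, were 2 to 5 with single uteri left out. Groups of fewer uteri separate more easily, and the share over all genes is not given for these settings. Nothing is therefore read from this rise. The 5 without control 1 and without *Gp130* ecKO 2 were *Cacna2d1*, *Cacna2d3*, *Cacna1c*, *Cacna1h* and *Cacnb3*. In the fits with single uteri left out, 6 genes changed sign, with a range of −0.0045 to 0.59 for *Cacna1d*, −0.47 to 0.30 for *Cacnb1*, −0.19 to 0.65 for *Cacnb4*, −0.44 to 0.16 for *Gem*, −0.084 to 0.33 for *Calm2* and −0.14 to 0.76 for *Rims1*. The cause was not tested. Depth limits *Cacna2d2*, *Cacna2d4* and the control level of *Cacna2d3*, which rest on at most 35 counts in any uterus.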

Other observations

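Genes that handle calcium after it has entered the cell were measured in the same uteri. Of 18 genes of store release and refill, 16 passed the filter and none was called by edgeR's quasi-likelihood test, its exact test or DESeq2. Of the 16, 4 had an unadjusted p below 0.05, as did 25% of all tested genes, and 12 had a log2 fold change above 0 and 4 below, with a median of 0.35 against −0.05 over all tested genes. The genes named here were chosen after their values were seen. *Stim2*, a sensor of store calcium, had 45.7, 45.6 and 47.2 CPM in controls, against 58.0, 69.7 and 57.4 CPM in *Gp130* ecKO. Its fitted log2 difference was 0.42 (SE 0.16, edgeR adjusted p = 0.159). It was the one gene of this list whose groups did not overlap in CPM, while in TPM *Atp2a2* and *Atp2a3* were also higher without overlap. Over all tested genes 15.7% were higher and 15.6% lower without overlap in CPM. *Itpr3*, a store release channel typical of epithelium, had 55.6, 40.7 and 32.3 CPM in controls, against 84.1, 79.9 and 52.6 CPM in *Gp130* ecKO. Control 1 lay above *Gp130* ecKO 3, and the fitted log2 difference was 0.75 (SE 0.27, edgeR adjusted p = 0.149).

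Of 8 genes of calcium export 7 passed the filter and none was called by any of these tests. Their median log2 fold change was 0.10, and 1 of the 7 had an unadjusted p below 0.05, against 25% of all tested genes. The 1 export gene was *Atp2b2*, a calcium pump of the plasma membrane, with 16.3, 138 and 84.9 CPM in controls, against 267, 253 and 164 CPM in *Gp130* ecKO. Its groups did not overlap, and the fitted log2 difference was 1.51 (SE 0.65, edgeR adjusted p = 0.199). All 10 genes of calcium-activated partners of smooth muscle passed the filter. None was called by any of these tests and none had an unadjusted p below 0.05, against the same 25% of all tested genes. Their median log2 fold change was −0.17. *Kcnn3*, a calcium-activated potassium channel, had 7.57, 7.48 and 16.3 CPM in controls, against 4.70, 6.92 and 6.18 CPM in *Gp130* ecKO, again with control 3 highest. Its groups did not overlap in CPM but did in TPM. Of the 10 genes, 3 were lower in *Gp130* ecKO without overlap in CPM, *Kcnn3* among them, and 1, *Kcnn4*, was higher. Over all tested genes 15.6% were lower and 15.7% higher without overlap, and nothing is read from these counts.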
